A study of Zea mays with 192 samples.

Results

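Among maize leaf protoplasts that had received a pool of pre-meiotic transcription factors, cells in which RNA of the ABI5 construct was found were set against cells in which it was not. Both sides were chosen by a measured value. A cell counted as ABI5-detected with at least 1 unique molecular identifier (UMI, the tag that marks 1 captured RNA molecule) on the row GFP_ABI5, and as ABI5-not-detected with 0. Only cells with at least 10000 UMIs were kept, which left 77 of the 96 cells of the pool, out of 192 cells in the series. Of these 77 cells, 28 were ABI5-detected and 49 were ABI5-not-detected, a share of 36.4% (exact 95% interval 25.7 to 48.1%). The deepest cell left out had 9872 UMIs and the shallowest cell kept had 10227.

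Both sides came from leaves of wild-type B73 seedlings 10 to 12 days old, kept in darkness at 25 °C, with leaves of more than 10 seedlings used in each isolation. Both had received the same construct mixture, so ABI5-not-detected cells are not untreated cells, and the series holds no untransfected protoplasts. The rest of the series, 96 cells that received basic helix-loop-helix (bHLH) factors, serves below only as a check. The labels name no separate transfections, so the pool is 1 sample, and every difference between the sides is a description with no p-value. Intervals on shares and on ratios of summed UMIs are exact 95% intervals that cover counting error only.

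ABI5 is a basic leucine zipper (bZIP) factor of abscisic acid signalling. It is known mainly from Arabidopsis seeds, where it binds promoter elements with an ACGT core and activates late embryogenesis abundant (LEA) genes. Receptors of the PYL family bind abscisic acid and inhibit PP2C phosphatases, which frees the kinases that activate ABI5 and related bZIP factors. The study expressed candidate regulators of reproductive phasiRNAs, small RNAs cut in regular steps from the transcripts of PHAS loci in anthers, in leaf cells.

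ABI5 detection rested on few molecules. GFP_ABI5 had 37 UMIs in the kept cells, and 21 of the 28 detected cells held 1 UMI, 6 held 2 and 1 held 4. At the boundary the sides therefore differ by a single molecule. Its level in ABI5-detected cells ran from 12.5 to 171 TPM (UMIs per 1000000 UMIs of the cell), with a median of 28.5 and a mean of 42.1. None of the 96 bHLH-pool cells held a GFP_ABI5 UMI, which by a limit of 3 cells allows up to 3.125% of cells with a UMI, at a median depth of 28577.5 UMIs against 33922 in the kept cells. A count of 0 does not show that the construct was absent. The level that 0 UMIs still allows (3 UMIs of the cell's total) had a median of 103 TPM in ABI5-not-detected cells, and in 43 of the 49 it exceeded the mean level of the detected cells. After each cell was thinned to 10000 UMIs, a UMI on GFP_ABI5 was left in 7 cells. No gene model in the table carries the name ABI5, so the level of the plant's own gene was not examined.

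The sides also differed in depth and in the makeup of their RNA, which bears on every gene described below. ABI5-detected cells had 11699 to 88243 UMIs with a median of 37741.5, and ABI5-not-detected cells had 10227 to 86977 with a median of 28995. The medians of detected rows per cell were 6837 in ABI5-detected cells and 5274 in ABI5-not-detected cells. At 10000 UMIs in every cell the medians were 2931.5 in ABI5-detected cells and 2243 in ABI5-not-detected cells. In this and later values at 10000 UMIs, cells kept the side they had at full depth, unless the sides are called redrawn. The row with most UMIs, GRMZM2G028910, which the gene table does not name, had a median share of 29.1% in ABI5-detected cells and 35.0% in ABI5-not-detected cells. The ranges of both sides overlapped on each of these measures.

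**Figure D1:**
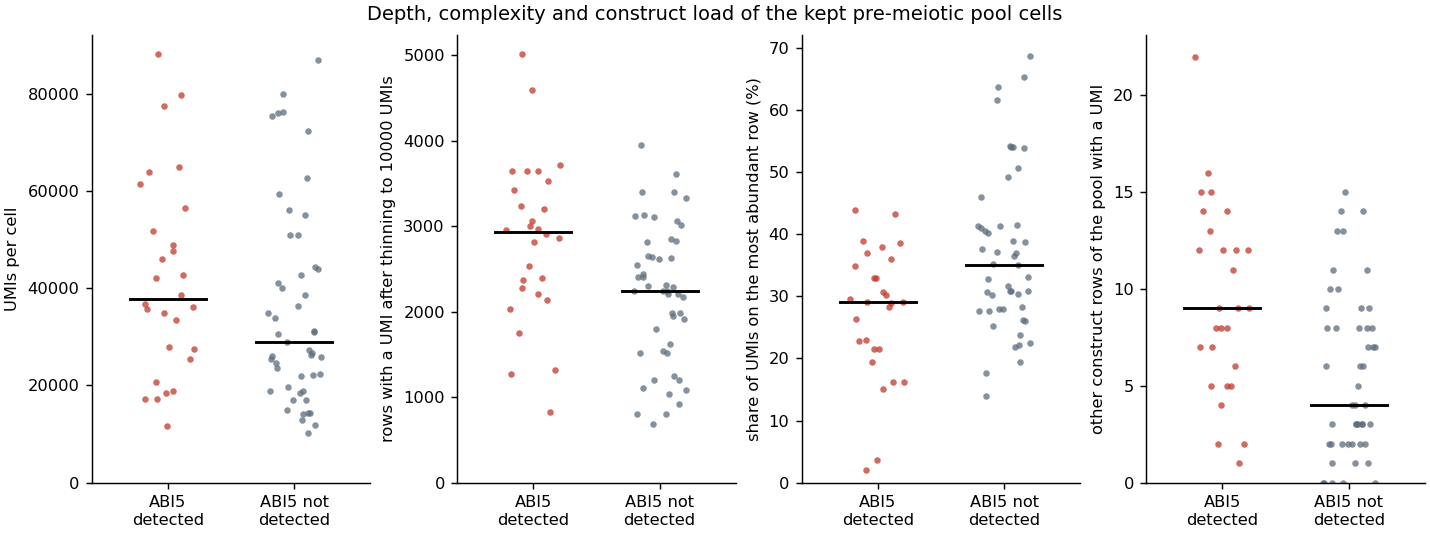
Each point is a kept cell, ABI5-detected (n = 28) at left and ABI5-not-detected (n = 49) at right in each panel, and the black line is the median. From left to right the panels show UMIs, rows with a UMI after thinning to 10000 UMIs, percent of UMIs on the most abundant row, and the number of other construct rows with a UMI, whose medians are 9 in ABI5-detected and 4 in ABI5-not-detected cells. The points of the sides overlap in every panel, and 2 ABI5-detected cells lie at the bottom of the third panel.

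A pair of ABI5-detected cells stood apart from all others. Protoplasts 34 and 75 had 3.60% and 2.03% of their UMIs on GRMZM2G028910, against at least 15.0% in the other ABI5-detected cells and at least 13.9% in the ABI5-not-detected cells. They had 11699 and 20749 UMIs and, at 10000 UMIs, 4597 and 5020 detected rows, more than any other kept cell. Protoplast 34 had the highest GFP_ABI5 level, 171 TPM. Protoplast 75 had 3277 TPM summed over the other constructs of the pool, also the highest. Results are given with and without this pair, a split made on the top row's share after the data had been seen.

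Most of the other constructs were more often found in ABI5-detected cells. Besides GFP_ABI5 and a control, 22 construct rows had more UMIs in this pool than in the bHLH pool and are taken as its own. Out of these 22 rows, the median ABI5-detected cell held 9 (1 to 22) and the median ABI5-not-detected cell held 4 (0 to 15). At 10000 UMIs the medians were 4 in ABI5-detected and 2 in ABI5-not-detected cells. Their summed level had a median of 491 TPM in ABI5-detected cells (17.7 to 3277) and 225 TPM in ABI5-not-detected cells (0 to 1552). Over all cells of each side, 640 UMIs in ABI5-detected cells and 522 in ABI5-not-detected cells gave a ratio of rates of 1.83 (1.63 to 2.06). Without protoplasts 34 and 75 the ratio was 1.66 (1.47 to 1.87). The control row, GFP_control, went the other way on few UMIs. It had 1 UMI in ABI5-detected and 6 in ABI5-not-detected cells, a ratio of 0.25 (0.0054 to 2.06).

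The share of cells was higher in ABI5-detected cells for 21 of the 22 rows, and at 10000 UMIs for 18 of them in the first random draw and 16 in the second. The interval of the summed UMI ratio lay above 1 for 10 rows and below 1 for 0. GFP_bHLH97, a bHLH factor construct, was found in 89.3% of ABI5-detected and 67.3% of ABI5-not-detected cells, and its ratio was 1.46 (1.13 to 1.89). GFP_bHLH103, a related bHLH construct, was found in 78.6% of ABI5-detected and 53.1% of ABI5-not-detected cells, with a ratio of 2.52 (1.85 to 3.44). These were the only construct rows abundant enough to enter the comparison of all rows, which GFP_ABI5 itself did not enter.

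Rarer constructs had ratios from 1.03 to 4.74 with wide intervals. GFP_DOF7, a DOF zinc finger factor, had 19 UMIs in ABI5-detected and 6 in ABI5-not-detected cells, a ratio of 4.74 (1.82 to 14.5). GFP_ZFL1, a LEAFY homologue, had 22 UMIs in ABI5-detected and 10 in ABI5-not-detected cells, a ratio of 3.29 (1.50 to 7.79). GFP_OCL4, an HD-ZIP IV factor, had 27 UMIs in ABI5-detected and 14 in ABI5-not-detected cells, a ratio of 2.89 (1.46 to 5.96). GFP_OFP9, an ovate family protein, was the exception: it was found in 60.7% of ABI5-detected and 61.2% of ABI5-not-detected cells, with a ratio of 1.03 (0.67 to 1.57). GFP_ZHD4, a zinc finger homeodomain factor, was found in 67.9% of ABI5-detected and 34.7% of ABI5-not-detected cells at full depth, but in 10.7% of ABI5-detected and 12.2% of ABI5-not-detected cells at 10000 UMIs. A second random draw of 10000 UMIs gave 39.3% of ABI5-detected and 16.3% of ABI5-not-detected cells for this row, so the first draw does not settle its share.

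A further 8 construct rows had more UMIs in the bHLH pool and are taken as constructs of that pool. No list of the mixtures was used, so whether these cells had been given any of them is not known. In the kept cells these rows held 21 of 1173484 UMIs in ABI5-detected cells and 13 of 1756229 in ABI5-not-detected cells. GFP_bHLH122 accounted for 14 of them in ABI5-detected and 8 in ABI5-not-detected cells, a ratio of 2.62 (1.03 to 7.21). The row GFP_Ms32 had 4 UMIs in ABI5-detected and 5 in ABI5-not-detected cells, a ratio of 1.20 (0.24 to 5.56). The part of stray counts between the pools in the higher construct shares was not tested.

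**Figure D2:**
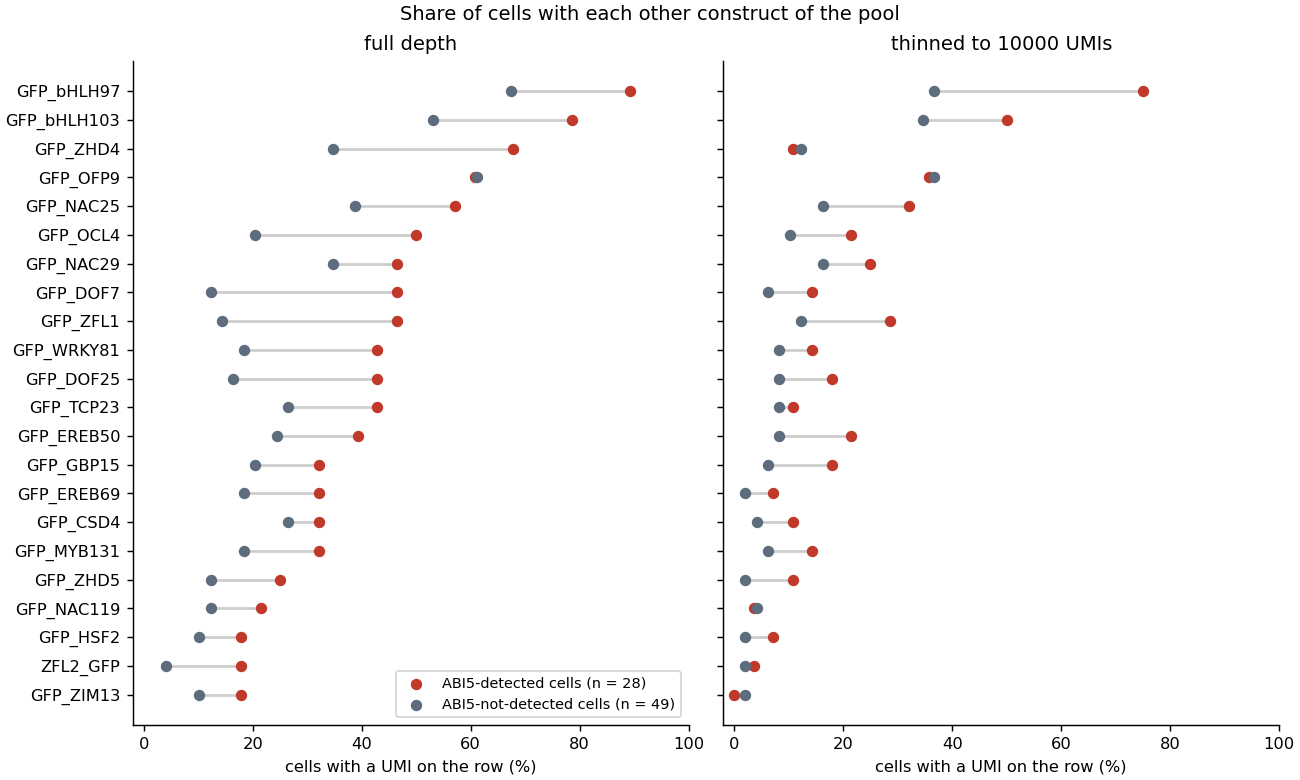
Each line is 1 of the 22 other construct rows of the pool, with the percent of cells holding a UMI in ABI5-detected cells (red, n = 28) and ABI5-not-detected cells (grey, n = 49), at full depth at left and after thinning to 10000 UMIs at right. Red lies to the right of grey for 21 rows at full depth and 18 after thinning (the first draw), and GFP_OFP9 has both points together.

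Gene models that answer to transfected factors were also higher in ABI5-detected cells. The models of nam1 (a NAC factor with the synonym NAC119), ocl4, OFP16 (an ovate family protein) and zfl1 had 0 UMIs in all 96 bHLH-pool cells, while CSD4 had 217. None of the construct rows is named OFP16. OFP16 had a median of 640 TPM in ABI5-detected cells (64.5 to 2940) and 268 TPM in ABI5-not-detected cells (28.6 to 1620), with a log2 ratio of 0.89. The log2 ratio compares mean levels plus a pseudocount of 10 TPM, which shrinks it for low rows. The ratio of zfl1 was 0.92, with medians of 249 TPM in ABI5-detected and 116 TPM in ABI5-not-detected cells. The log2 ratio was 0.67 for nam1, 0.63 for ocl4 and 0.53 for CSD4. The median row of all genes, described next, had 0.41. Without protoplasts 34 and 75 the 5 log2 ratios ran from 0.31 for CSD4 to 0.62 for OFP16, and the median row had 0.29. Whether construct RNA was counted on these gene models was not tested.

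Across all genes, most rows were somewhat higher in ABI5-detected cells. To enter, a row needed UMIs in 25% or more of the cells of a side together with 50 TPM or more on average there, which 1594 rows had, 1590 of them genes. Their median log2 ratio was 0.41, and 86.4% were above 0. Levels are shares of a cell's UMIs, and GRMZM2G028910 averaged 275083 TPM in ABI5-detected cells and 368266 TPM in ABI5-not-detected cells. Over the same 1594 rows, the median was 0.26 with cell totals taken without that row and 0.30 without protoplasts 34 and 75. At 10000 UMIs in every cell it was 0.38 with the sides as at full depth. With the sides redrawn at 10000 UMIs (7 and 70 cells) it was 0.16, with 132 of these rows at least 2-fold higher and 97 lower. The filter bears on the shift too: 556 rows passed on the ABI5-detected side alone and 36 on the ABI5-not-detected side alone, and the 1002 rows that passed on both had a median of 0.29. Ratios of single rows and lists are set beside this median below.

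At least 2-fold higher mean levels in ABI5-detected cells were found for 65 rows (4.08%) and at least 2-fold lower levels for 3 rows (0.188%). Relative to the median row, 4 rows were at least 2-fold higher (0.251%) and 14 at least 2-fold lower (0.878%). With totals taken without the top row, 35 of the same 1594 rows were higher and 6 lower. Of the 65 higher rows, 50 passed the filter on the ABI5-detected side alone, and the 3 lower rows passed on the ABI5-not-detected side alone. Passing on 1 side alone favours a difference in that direction, so these counts describe the rows and support nothing further. For 39 of the 65 higher rows the highest ABI5-detected cell was protoplast 34 or 75. Without this pair 22 of 1434 rows were at least 2-fold higher and 6 at least 2-fold lower. Of the 65 rows, 17 were past 2-fold in each of 4 versions (means, summed UMIs, 10000 UMIs per cell, and means without the highest cell of each side), and 10 of these 17 also without the pair.

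**Figure D3:**
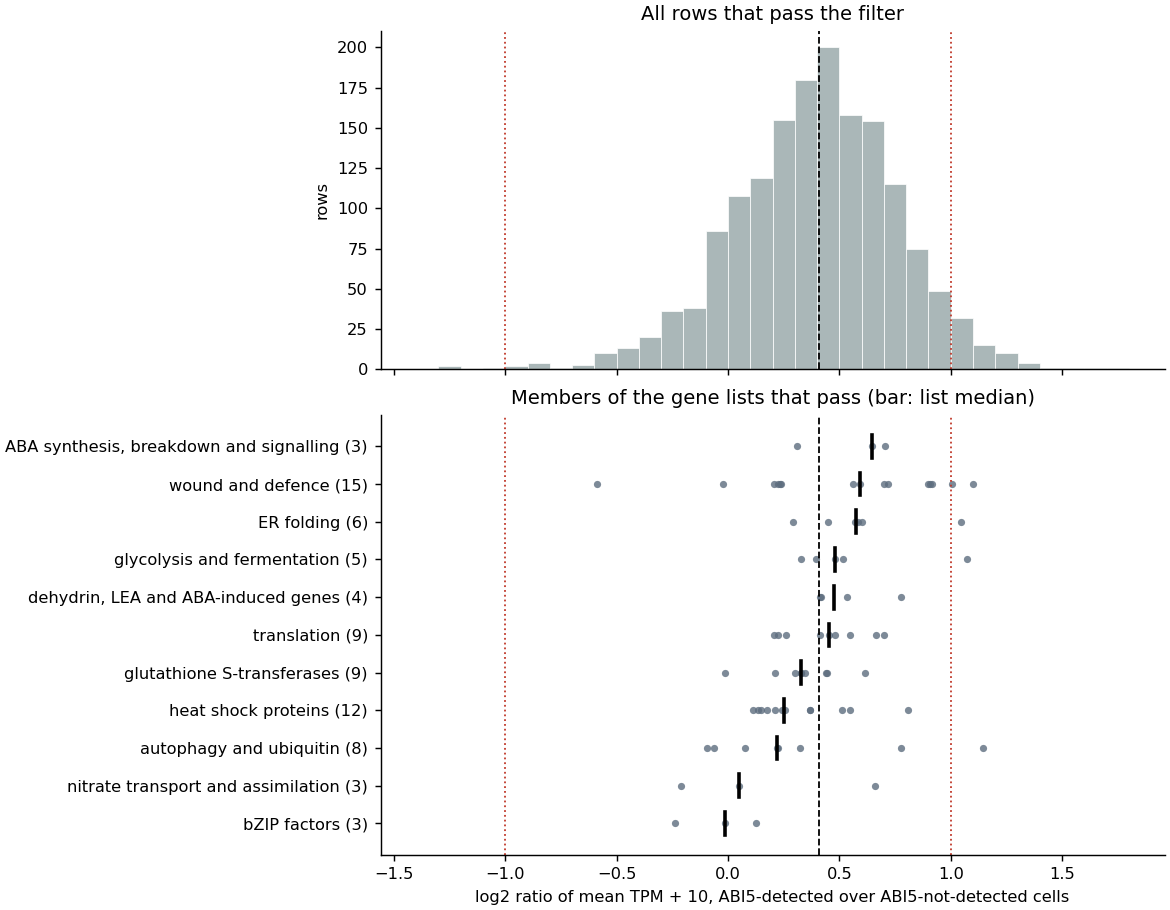
The upper panel counts the 1594 rows that passed by log2 ratio of mean TPM plus 10, ABI5-detected over ABI5-not-detected cells. The lower panel shows the passing members of each gene list (their number in brackets) with a bar at the list's median. The dashed line marks the median of all rows, 0.41, and dotted lines mark 2-fold. List medians lie from close to 0 for bZIP factors to 0.64 for abscisic acid synthesis and signalling.

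The 12 highest gene rows by the smallest of their ratios over these 4 versions had log2 ratios from 1.13 to 1.55. Of these 12, 9 passed the filter on the ABI5-detected side alone. The gene table gives none of the 12 a name, so their roles are not stated. GRMZM2G153215 was found in 22 of 28 ABI5-detected and 19 of 49 ABI5-not-detected cells. Its level ran from 0 to 181 TPM with a median of 53.1 in ABI5-detected cells, and from 0 to 85.7 TPM with a median of 0 in ABI5-not-detected cells, a log2 ratio of 1.41 and 1.32 without the pair. GRMZM2G100675 had a median of 132 TPM in ABI5-detected cells (0 to 1424) and 39.2 TPM in ABI5-not-detected cells (0 to 531), and its log2 ratio of 1.27 was 1.29 without the pair.

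More abundant rows also stood in this group. GRMZM2G042040 had a median of 232 TPM in ABI5-detected cells (0 to 747) and 85.7 TPM in ABI5-not-detected cells (0 to 587), a log2 ratio of 1.13. AC188003.3_FG011 had a median of 281 TPM in ABI5-detected cells (53.0 to 3650) and 157 TPM in ABI5-not-detected cells (0 to 2017), with a log2 ratio of 1.15 that was 0.90 without the pair. For all of these rows the levels of the sides overlapped, with the highest cell an ABI5-detected one.

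The others of the 12 differed in how far they rested on the pair. GRMZM2G030436 (1.23 without the pair), GRMZM2G045706 (1.13) and GRMZM2G135960 (1.41) stayed past 2-fold without it. GRMZM2G113165 had the highest log2 ratio of the 12, 1.55, but was found in 10 ABI5-detected and 12 ABI5-not-detected cells and was at 0.53 without the pair. GRMZM2G087150 was at 1.00 without the pair but then, like GRMZM2G113165, no longer passed the filter, and GRMZM2G136508, GRMZM2G135108 and GRMZM2G033787 were between 0.96 and 0.99. In all, 6 of the 12 passed and were past 2-fold without it. In a second random draw of 10000 UMIs per cell the 12 ratios ran from 0.51 to 2.34, so the ranking depends on the draw.

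The 12 lowest rows had log2 ratios between -1.27 and -0.51, and the gene table names none of them either. Of these 12, 5 passed the filter on the ABI5-not-detected side alone. GRMZM2G086723 was found in 26 of 28 ABI5-detected and 46 of 49 ABI5-not-detected cells. Its level had a median of 334 TPM in ABI5-detected cells (0 to 940) and 384 TPM in ABI5-not-detected cells (0 to 2038), and summed UMIs gave a ratio of 0.67 (0.60 to 0.76). GRMZM5G859979 had medians of 422 TPM in ABI5-detected cells (0 to 1293) and 529 TPM in ABI5-not-detected cells (0 to 2626), a ratio of 0.69 (0.62 to 0.76). Both had their highest level on each side in the same cells, protoplast 84 among ABI5-detected and 96 among ABI5-not-detected cells.

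GRMZM2G103897 and GRMZM2G120517 had the lowest log2 ratios of the 12, -1.26 and -1.27. Both rested in part on protoplast 76, an ABI5-not-detected cell with 2794 and 2429 TPM, while the highest ABI5-detected cell had 403 and 450 TPM. Among cells at or above the median depth, both log2 ratios were 0.73, the opposite direction. GRMZM2G078839 and GRMZM2G112912, with log2 ratios of -0.99 and -0.90, also had their highest levels in protoplasts 66 and 76.

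GRMZM2G429617 was low in a more spread way. It was found in 17 of 28 ABI5-detected and 34 of 49 ABI5-not-detected cells, with medians of 16.9 TPM in ABI5-detected and 44.7 TPM in ABI5-not-detected cells and a log2 ratio of -0.87. The other 5 rows (GRMZM2G416110, GRMZM2G078465, GRMZM2G139512, GRMZM2G075989 and GRMZM2G079109) had log2 ratios from -0.85 to -0.51.

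Of 11 listed dehydrin, late embryogenesis abundant and other genes, 8 had a UMI and 4 passed, and 0 of these 4 abscisic acid-induced genes were past 2-fold in either direction. Their median log2 ratio was 0.47, or 0.06 above the median of all rows, and 0.14 above it without protoplasts 34 and 75. Each of the 4 was above the median row, but RAB15 only by 0.005 and cat1 only by 0.007. Without protoplasts 34 and 75 only cat1 fell below the median row, at 0.288 against 0.291. With summed UMIs only RAB15 did, at 0.245 against 0.351. The dehydrin dhn1, also called rab17, had the highest ratio, with medians of 71.3 TPM in ABI5-detected cells (0 to 387) and 35.6 TPM in ABI5-not-detected cells (0 to 281) and a log2 ratio of 0.78. It was 0.80 without protoplasts 34 and 75. With means of 89.3 TPM in ABI5-detected and 47.9 TPM in ABI5-not-detected cells, dhn1 passed the filter on the ABI5-detected side alone. Passing in that way favours a higher ratio. The dehydrin dhn2 had medians of 213 TPM in ABI5-detected cells (86.8 to 1896) and 162 TPM in ABI5-not-detected cells (0 to 1088), a log2 ratio of 0.53.

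The remaining pair of passing genes in this list differed by about the median row. RAB15 had medians of 450 TPM in ABI5-detected cells (96.4 to 2497) and 419 TPM in ABI5-not-detected cells (0 to 1137), a log2 ratio of 0.41. The catalase gene cat1, whose product breaks down hydrogen peroxide, had medians of 118 TPM in ABI5-detected cells (0 to 289) and 79.6 TPM in ABI5-not-detected cells (0 to 281), a log2 ratio of 0.42. The seed LEA gene EMB5 had 0 UMIs in both sides, which allows up to 2.56 TPM over the ABI5-detected cells and 1.71 TPM over the ABI5-not-detected cells.

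Of 43 listed genes of abscisic acid synthesis, breakdown and signalling, 41 had a UMI and 3 passed, none past 2-fold. The aldehyde oxidase gene AO1, of the enzyme family that makes abscisic acid from its aldehyde, had medians of 278 TPM in ABI5-detected cells (25.8 to 1281) and 177 TPM in ABI5-not-detected cells (0 to 616), a log2 ratio of 0.70. AO2 had a log2 ratio of 0.31. A gene named PP2C, of the phosphatase family that holds the pathway down in Arabidopsis, had a log2 ratio of 0.64 that was 0.45 without the pair. The list's median was 0.64, or 0.24 above that of all rows. The B3 factor gene vp1, a homologue of the Arabidopsis ABI5 partner ABI3, had 2 UMIs in ABI5-detected and 1 in ABI5-not-detected cells, too few to compare. Of 36 listed bZIP genes, 3 passed, with log2 ratios of -0.01 for lip15, -0.24 for ohp1 and 0.13 for bZIP17. Their median was 0.42 below that of all rows. These 3 passed the filter on both sides, and the rows that did so had a lower median, 0.29.

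Among wound and defence genes, 15 of 77 listed passed and 2 were at least 2-fold higher, against 65 of 1594 rows in all. The median log2 ratio was 0.59, or 0.18 above that of all rows, and 0.10 above it without the pair. The wound-induced gene wip1, which codes for a proteinase inhibitor, was found in 28 of 28 ABI5-detected and 47 of 49 ABI5-not-detected cells. Its level had a median of 558 TPM in ABI5-detected cells (35.3 to 1833) and 210 TPM in ABI5-not-detected cells (0 to 1380), and the log2 ratio of 1.00 was 0.87 without the pair. The gene opr3, of the oxophytodienoate reductase family, had medians of 37.7 TPM in ABI5-detected cells (0 to 598) and 0 in ABI5-not-detected cells (0 to 294). Its log2 ratio was 1.10, and 0.81 without the pair, of which protoplast 34 was its highest cell. With a mean of 35.8 TPM in ABI5-not-detected cells, opr3 passed the filter on the ABI5-detected side alone, which favours a higher ratio.

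Other wound and defence genes spread widely. The abundant family members opr1 and opr2 had log2 ratios of 0.21 and 0.24. The proteinase inhibitor gene MPI was at 0.56, the pathogenesis-related gene pr5 at 0.90 and the chitinase genes chiI and chiA at 0.72 and 0.90. The family member opr5 was at -0.59.

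**Figure D4:**
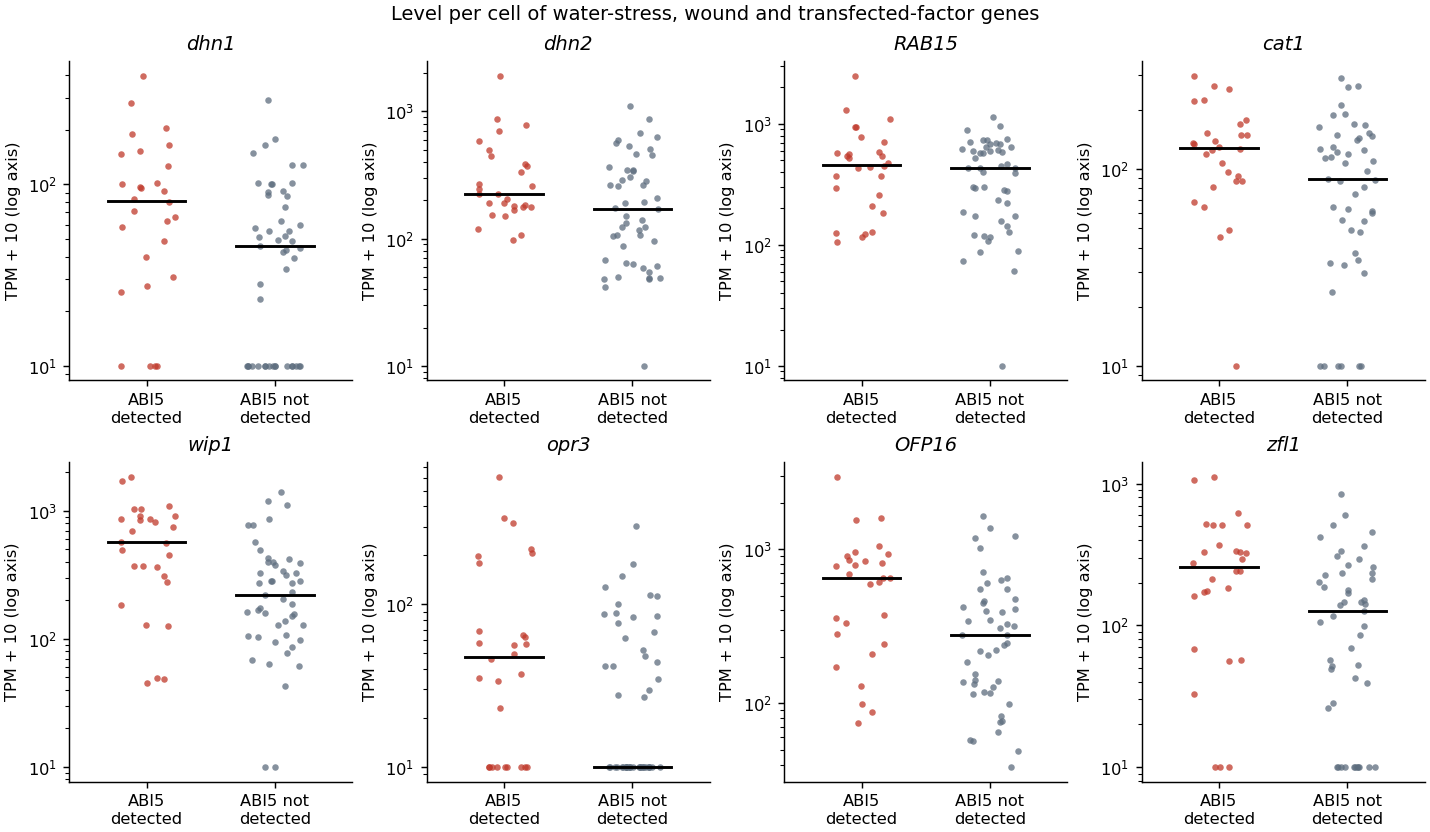
Each point is a kept cell, ABI5-detected (n = 28) at left and ABI5-not-detected (n = 49) at right, on a log axis of TPM plus 10, with the median as a black line. The sides overlap in all 8 panels, and the medians of wip1 lie at 558 TPM in ABI5-detected and 210 TPM in ABI5-not-detected cells. Points at 10 are cells with 0 UMIs.

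Stress and housekeeping lists mostly stayed near or under the general shift. Of 12 passing heat shock genes none was past 2-fold, and their median log2 ratio was 0.25, or 0.16 below that of all rows. The rows that passed the filter on both sides had a median of 0.29. The small heat shock gene hsp18c was the highest at 0.81 and hsp22, the most abundant, was at 0.24. The 9 passing glutathione S-transferase genes, which encode detoxifying enzymes, had a median of 0.33, with 0.35 for gst5 and 0.44 for the gene gst2. The 6 passing genes whose products fold proteins in the endoplasmic reticulum had a median of 0.58, or 0.17 above that of all rows. There the calreticulin gene crt2 was past 2-fold at 1.05, with 1.03 without the pair but -0.02 among cells at or above the median depth. With a mean of 47.0 TPM in ABI5-not-detected cells, crt2 passed the filter on the ABI5-detected side alone. The chaperone genes bip1 and bip2 were at 0.57 and 0.58.

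The remaining lists held isolated high members. Of 8 passing autophagy and ubiquitin genes, Atg8c, which codes for a protein of autophagosome membranes, was past 2-fold at 1.14. It was at 0.67 without the pair, where it no longer passed the filter, and the list's median was 0.22. With a mean of 18.1 TPM in ABI5-not-detected cells, Atg8c passed on the ABI5-detected side alone. Of 5 passing glycolysis genes, gpc3, a cytosolic glyceraldehyde phosphate dehydrogenase gene, was past 2-fold at 1.07 and was at 0.56 without the pair. The 9 translation genes had a median of 0.46 and the 3 nitrogen assimilation genes a median of 0.05. Of 11 listed small RNA machinery genes 0 passed, with 74 UMIs summed in ABI5-detected and 89 in ABI5-not-detected cells, a ratio of 1.24 (0.90 to 1.71).

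Of the 65 higher rows, 15 had an informative name. Picked from those outside the lists after their values were seen, the isocitrate lyase gene icl1 of the glyoxylate cycle had medians of 144 TPM in ABI5-detected cells (0 to 1574) and 65.5 TPM in ABI5-not-detected cells (0 to 648). Its log2 ratio was 1.09, and 1.16 without the pair. The cystatin gene cc6, a cysteine proteinase inhibitor, had medians of 217 TPM in ABI5-detected cells (0 to 731) and 82.4 TPM in ABI5-not-detected cells (0 to 533), with a log2 ratio of 1.12 that was 0.99 without the pair. The sides overlapped for both.

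The PHAS loci were summed by class. The 21-nucleotide class had a UMI in 92.9% of ABI5-detected cells (76.5 to 99.1%) and 75.5% of ABI5-not-detected cells (61.1 to 86.7%), and at 10000 UMIs in 64.3% of ABI5-detected and 44.9% of ABI5-not-detected cells. Its summed level had a median of 128 TPM in ABI5-detected cells (0 to 294) and 82.4 TPM in ABI5-not-detected cells (0 to 381). Summed UMIs, 152 in ABI5-detected and 162 in ABI5-not-detected cells, gave a ratio of 1.40 (1.12 to 1.76), and the log2 ratio of the class was 0.51 against 0.41 for the median row.

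The 24-nucleotide class was found in 28 of 28 ABI5-detected and 49 of 49 ABI5-not-detected cells. Its level had a median of 329 TPM in ABI5-detected cells (53.0 to 723) and 235 TPM in ABI5-not-detected cells (39.2 to 702). Summed UMIs gave a ratio of 1.37 (1.19 to 1.57) and the log2 ratio was 0.55. Without protoplasts 34 and 75 the ratios of summed UMIs were 1.39 (1.10 to 1.75) for the 21-nucleotide and 1.33 (1.16 to 1.53) for the 24-nucleotide class. The log2 ratios were then 0.47 and 0.46, against 0.29 for the median row.

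By row, 41 PHAS loci had a UMI in the kept cells and 2 passed. 24PHAS_NO166 had 221 UMIs in ABI5-detected and 264 in ABI5-not-detected cells, with a log2 ratio of 0.41. 24PHAS_NO63 had 111 UMIs in ABI5-detected and 101 in ABI5-not-detected cells, with a log2 ratio of 0.79. 21PHAS_NO588 was found in 75.0% of ABI5-detected and 49.0% of ABI5-not-detected cells, and 21PHAS_NO589 had the same UMI count in 76 of 77 cells, so these are uncertain as separate loci. 24PHAS_NO269 had 28 UMIs in ABI5-detected and 38 in ABI5-not-detected cells and a log2 ratio of 0.10.

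Markers of leaf cell types were found on both sides at low levels. The mesophyll gene ppdk1, which codes for a C4 photosynthesis enzyme, was found in 25 of 28 ABI5-detected and 37 of 49 ABI5-not-detected cells, with a log2 ratio of 0.38. The other mesophyll genes were sparse: pep1 had 5 UMIs in ABI5-detected and 17 in ABI5-not-detected cells, and mdh6 had 4 in ABI5-detected and 5 in ABI5-not-detected cells. The 3 bundle sheath rows summed to a median of 0 TPM on each side (highest 145 in ABI5-detected and 110 in ABI5-not-detected cells), and the epidermal rows to medians of 17.0 TPM in ABI5-detected and 0 in ABI5-not-detected cells. The tapetum genes ms8, ms26 and ms23 were at 0 in every kept cell, and ms32 had 1 UMI, in an ABI5-not-detected cell.

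The same cells were also split on other constructs. With GFP_NAC25 as the splitting row (35 detected cells) the median log2 ratio was 0.26. Of its 1482 passing rows, 49 (3.31%) were at least 2-fold higher and 4 (0.270%) lower. With GFP_ZHD4 (36 cells) the median was 0.20, with 20 (1.41%) higher and 10 (0.706%) lower of 1417 rows. With GFP_OFP9 (47 cells) it was 0.01, with 12 (0.866%) higher and 11 (0.794%) lower of 1385 rows. Without protoplasts 34 and 75 the medians were 0.29 for ABI5, 0.25 for NAC25, 0.19 for ZHD4 and 0.03 for OFP9. In the same order, 22 of 1434, 37 of 1391, 14 of 1337 and 7 of 1301 rows were then at least 2-fold higher. Each split had its own set of passing rows. These splits share their cells with the ABI5 split, 16, 19 and 17 of the 28 ABI5-detected cells being detected for NAC25, ZHD4 and OFP9 too, so they are given side by side only.

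Depth and construct load were also held within ranges. Over the same 1594 rows, the median log2 ratio was 0.47 below the median depth (10 ABI5-detected and 28 ABI5-not-detected cells) and 0.37 at or above it (18 and 21 cells). Among cells with few other construct rows, at or below the median (10 and 32 cells), it was 0.14, with 46 rows at least 2-fold higher and 28 lower. Among cells with more (18 and 17 cells) it was 0.45, with 130 higher and 16 lower. Among cells below and at or above the median number of rows at 10000 UMIs it was 0.19 and 0.25, both under the 0.41 of all kept cells. The shift differed between the strata of construct load, and the part of load, depth and rows per cell in the gene differences was not tested. Whether ABI5 itself or the load of all constructs goes with a gene's level cannot be told apart for constructs given as 1 mixture.

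**Figure D5:**
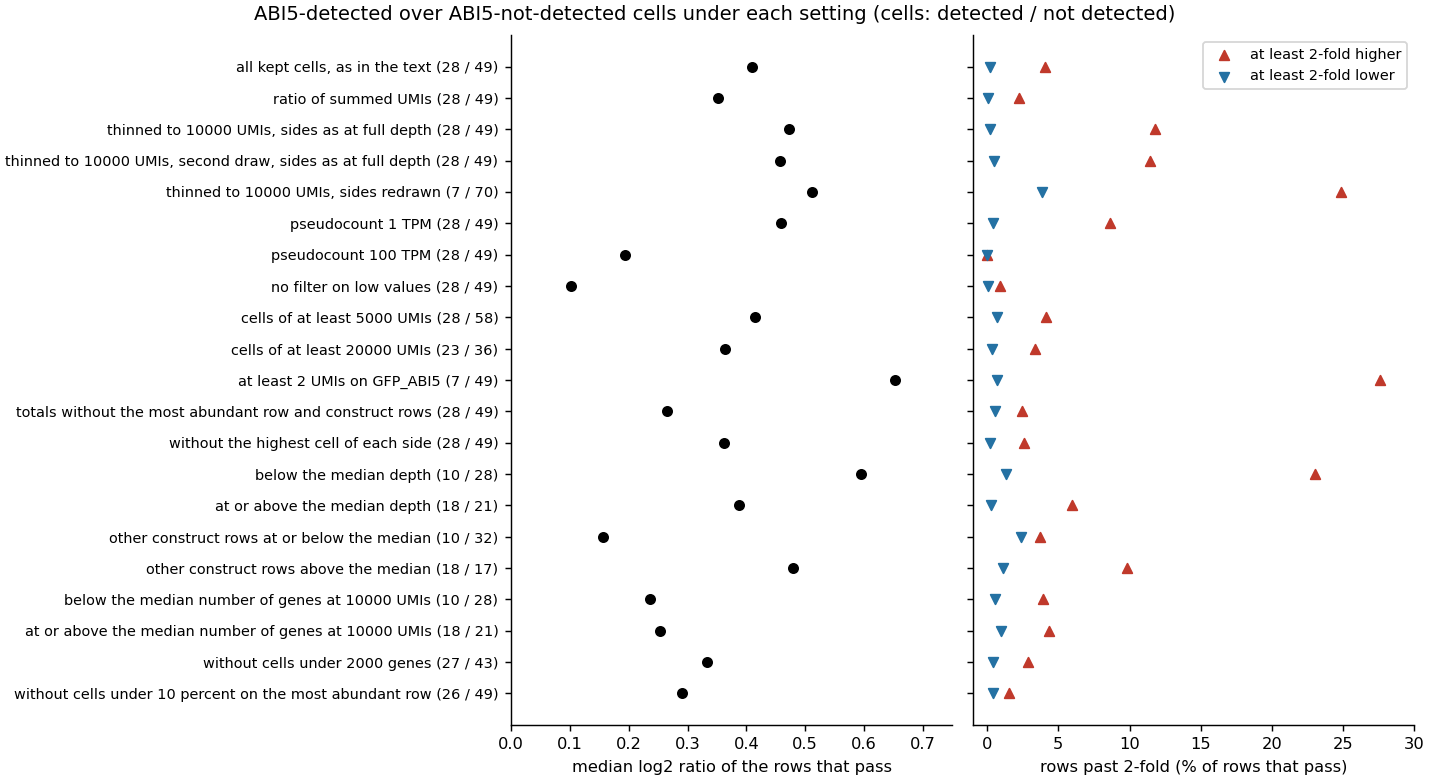
Each line is a setting, with the number of ABI5-detected and ABI5-not-detected cells in brackets. The left panel gives the median log2 ratio of the rows that passed under that setting and the right panel the percent of rows at least 2-fold higher (red) or lower (blue) in ABI5-detected cells. The median lies above 0 in every setting drawn, from 0.10 with no filter on low values to 0.65 with at least 2 UMIs on GFP_ABI5, and the percent of higher rows ranges from 0 to 27.6.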

How the data were processed

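Single protoplasts were profiled with CEL-seq2, per the labels' protocols, and the submitters' processing notes list HISAT2, SAMtools, UMI-tools and the build B73 RefGen_v3. Their versions were not given in the sources used here, nor was any filter on cells. The deposited values are a signal scaled by the authors. They were UMI counts per 1000000, but divided by cell totals recycled down the rows, so column sums run from 65502 to 10967874. Multiplying back gave whole UMIs for 1001042 of 1001042 nonzero values (tolerance 0.001), and TPM was recomputed per cell. The planned test assumed TPM as deposited.

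Analyses used Python 3.11.15, numpy 2.4.6, pandas 2.3.3 and scipy 1.17.1, and the ratio code was tested on simulated data. Cells were thinned by random draws without replacement (seeds 1 and 2). No doublet caller was run, and no kept cells were identical. Own construct rows were assigned by where their UMIs fell. Names came from the NAM-5.0 RefSeq table (16091 IDs matched) and no coordinates are given. Named were construct rows, the 12 highest and 12 lowest rows described, the 5 PHAS rows with most UMIs, gene models of transfected factors and up to 6 passing members per list, most UMIs first. Other named genes were chosen after their values were seen: opr3, chiA, opr5, Atg8c, EMB5, vp1, icl1 and cc6. The members and lists were chosen with earlier results of these data known. Misnamed rows were removed from lists. Promoter words were not examined.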

Additional observations from a re-analysis of the deposited data

How the results depend on the processing

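With all kept cells, 65 rows (4.08%) were at least 2-fold higher and 3 (0.188%) lower in ABI5-detected cells, and the median log2 ratio was 0.41. The values below keep this order (rows higher, rows lower, median), with the filter applied anew in each setting. Percents are of the rows that passed in that setting, which numbered from 895 to 31409. Ratios of summed UMIs gave 36 (2.26%), 1 (0.0627%) and 0.35. Leaving out the highest cell of each side gave 41 (2.57%), 3 (0.188%) and 0.36. Thinning gave 208 (11.8%), 3 (0.170%) and 0.47, and a second draw 201 (11.4%), 9 (0.512%) and 0.46. Thinning with sides redrawn on 7 cells gave 508 (24.9%), 79 (3.87%) and 0.51. Over the 1594 rows that passed with all kept cells, these redrawn sides gave 132, 97 and 0.16. A pseudocount of 1 TPM gave 137 (8.59%), 6 (0.376%) and 0.46, and one of 100 TPM gave 0, 0 and 0.19. No filter on low values gave 286 (0.911%), 16 (0.0509%) and 0.10 over 31409 rows. Keeping cells of at least 5000 UMIs gave 66 (4.12%), 11 (0.686%) and 0.41, and of at least 20000 UMIs 54 (3.38%), 5 (0.313%) and 0.36. Requiring 2 UMIs on GFP_ABI5 (7 cells) gave 553 (27.6%), 14 (0.698%) and 0.65. Totals without the top row and constructs gave 61 (2.47%), 14 (0.568%) and 0.26 over 2465 rows. Below the median depth the values were 456 (23.0%), 26 (1.31%) and 0.59, and at or above it 90 (5.95%), 4 (0.264%) and 0.39. With few other constructs they were 47 (3.73%), 30 (2.38%) and 0.16, and with more 196 (9.81%), 22 (1.10%) and 0.48. In the cells with fewer rows at 10000 UMIs they were 35 (3.91%), 5 (0.559%) and 0.24. In those with more they were 102 (4.36%), 22 (0.940%) and 0.25. Without cells under 2000 genes they were 47 (2.84%), 7 (0.422%) and 0.33. Without protoplasts 34 and 75 they were 22 (1.53%), 6 (0.418%) and 0.29. Relative to the median row they were 4 (0.251%), 14 (0.878%) and 0. Settings that keep other rows are not comparable row for row, and medians over the same 1594 rows ran from 0.14 with few other constructs to 0.47 below the median depth, the centring aside. The splits by rows per cell, the comparison over the same rows, the second draw, the centring and the settings without cells under 2000 genes or without the pair were chosen after seeing the data.

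Some rows past 2-fold changed direction. With sides redrawn after thinning, the log2 ratio was -0.27 for AC188003.3_FG011, -2 for GRMZM2G045706, -0.62 for GRMZM2G071630 (gpc3), -0.60 for GRMZM2G135108 and -0.15 for GRMZM2G136508. With at least 2 UMIs on GFP_ABI5 it was -0.24 for GRMZM2G071630 and -0.00435 for GRMZM2G135960. In cells with fewer rows it was -0.19 for GRMZM2G071630, -0.13 for GRMZM2G087150 and -0.45 for GRMZM2G113165. With few other constructs it was -0.75 for GRMZM2G113165. At or above the median depth it was 0.73 for GRMZM2G103897, 0.73 for GRMZM2G120517 and -0.022 for GRMZM2G358059 (crt2). The cause was not tested in any of these settings.

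The sides turn on 1 UMI in 21 of 28 ABI5-detected cells, and 2 of the settings leave 7 cells on 1 side. No paired analysis was possible because protoplast numbers only count cells.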
